A study of Mus musculus with 8 samples.

Results

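Rapamycin was added to the MEK inhibitor PD-0325901 in malignant peripheral nerve sheath tumours (MPNST) of the NPcis mouse, and the comparison described here sets the tumours given both drugs against those given PD-0325901 by itself. The members were chosen by sample title and comprise 4 of the 8 arrays of the series, 2 from the combination and 2 from PD-0325901, with all 19938 genes that a probe set assigned to a single gene symbol measures. The PD-0325901 group received 1.5 mg/kg per dose by oral gavage 2 times a day. The combination group received the same together with 5 mg/kg of rapamycin by intraperitoneal injection. The remaining 4 arrays, 2 with vehicle and 2 with 5 mg/kg of rapamycin alone, set the spread and give the rapamycin difference without the MEK inhibitor. Tumour tissue for all 8 arrays was taken after 14 hours.

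All groups share the NPcis background, in which mutant alleles of Nf1, a brake on Ras, and of Trp53 lie on the same chromosome. The tumours are described as primary, so each RNA also holds the stroma, vessels and immune cells of the host. In such bulk RNA, fewer cells of a type and less RNA per cell cannot be told apart. The labels do not say that the 2 arrays of a group are separate animals, so every p-value measures the spread between these samples, which may be technical.

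Rapamycin binds FKBP12, and the complex inhibits mTORC1, the kinase complex that couples growth factor and amino acid supply to ribosome production, translation, glycolysis and lipid synthesis. PD-0325901 blocks MEK, the kinase directly above ERK. Tumours that have lost Nf1 carry active Ras, which feeds both arms. Inhibition of mTORC1 is also known to release a feedback on insulin receptor substrates and receptor tyrosine kinases, which is why ERK signalling is often targeted together with it. The comparison asks which transcripts differ when the mTORC1 arm is inhibited in a tumour whose MEK is already inhibited.

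No gene passed an adjusted p of 0.05 in limma (0 of 19938, percent called 0.00), and the smallest adjusted p was 0.8677. At an unadjusted p under 0.05 there were 599 genes (3.0%), of which 346 (1.74%) were higher and 253 (1.27%) lower in the combination. With no difference at all, 997 would be expected. The count depends on which arrays set the spread, and it was 1166 in a fit of only the 2 groups compared. Differences below are therefore values, written as combination minus PD-0325901 on the log2 scale with limma's standard error (SE). Every p mentioned is unadjusted. In limma 2 genes, 5730596B20Rik and Tnfsf18, had an adjusted p of 0.8677, and it was 0.9998 for each other gene named in this comparison. The arrays of the 2 groups did not overlap for 34.5% of genes (16.3% higher in the combination, 18.2% lower), 47.9% of genes had a difference above 0 and 52.1% one below 0. The median difference over all genes was -0.0075.

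Markers of admixed cells stood apart on single arrays. The score of a marker list is the mean log2 value of its members on an array, each gene centred on its mean over the 8 arrays. PD-0325901 array 2 had the highest score for erythroid markers (1.36, against -0.39 to -0.04 on the other 7 arrays) and for neutrophil markers (0.70, against at most 0.08). The erythroid score rests on 4 of the 10 genes of its list, with no haemoglobin gene among them. Combination array 2 had the highest score for T and NK cell markers (0.91), and its score for skeletal muscle markers was 0.69. Of the arrays outside the comparison, rapamycin array 1 stood apart for adipocyte markers (2.14) and mast cell markers (1.10), and rapamycin array 2 for skeletal muscle markers (1.72). The part of these cells in any difference below was not tested, other than by leaving out single arrays. Schwann cell markers, the lineage the tumour is named for, had scores from -0.19 to 0.21. Sox10, the transcription factor of that lineage, lay between 7.84 and 8.17 on the log2 scale, and S100b, a classic diagnostic marker, between 7.12 and 7.32. The table used here gives no detection calls, so these levels do not show whether the 2 genes were expressed. Nf1 measured 10.20 and 10.11 on the PD-0325901 arrays and 9.72 and 10.07 on the combination arrays, a difference of -0.26 (SE 0.21). Where its probes lie relative to the mutation is not given, so its level is no check of the genotype.

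**Figure D1:**
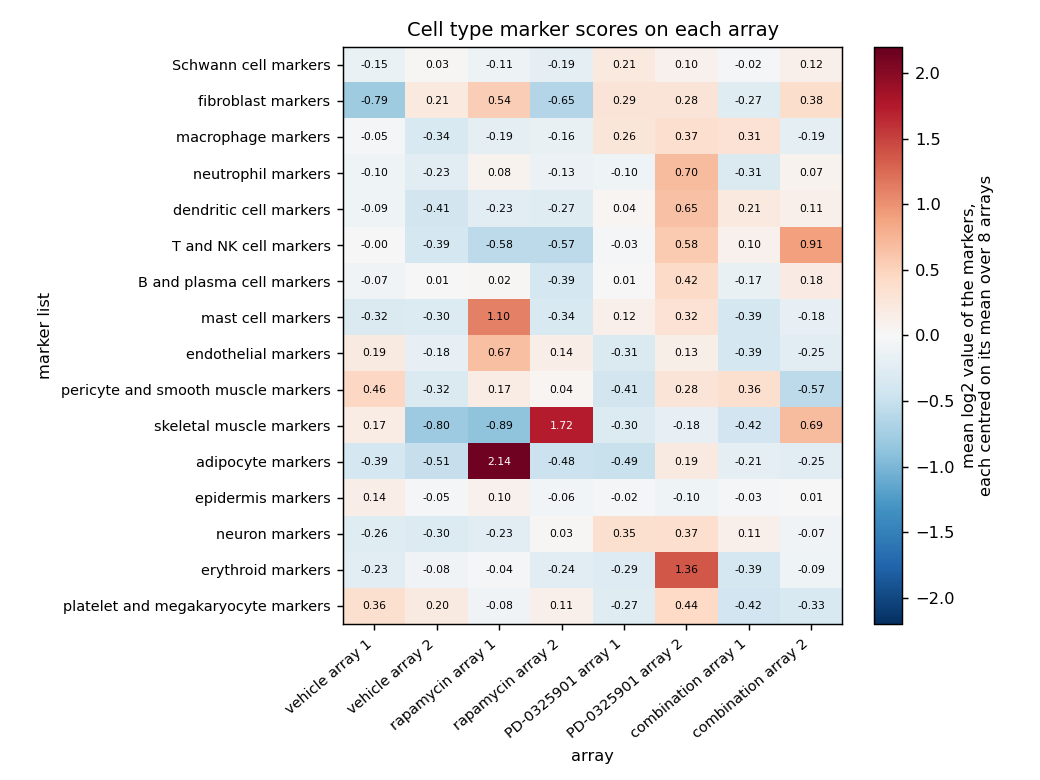
Heat map of cell type marker scores (colour and printed number, mean centred log2 value) for 16 marker lists in rows and the 8 arrays in columns. Single arrays stand out, such as PD-0325901 array 2 for erythroid markers (1.36, with 4 of 10 genes measured) and combination array 2 for T and NK cell markers (0.91).

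Genes were ranked by p among named genes (no clone or predicted gene names) with a mean level above that of the median gene and arrays that did not overlap. The higher gene with the smallest p by this rule was Zbed3, an axin-binding zinc finger protein of the Wnt pathway. Zbed3 was 9.32 and 9.22 with PD-0325901 and 9.88 on both combination arrays (0.61, SE 0.09). Atg14, the subunit that directs the class III PI3-kinase to autophagosome formation, was 8.53 and 8.38 with PD-0325901 and 8.96 and 9.08 in the combination (0.56, SE 0.11). Acvr1, a type I receptor for bone morphogenetic proteins and activins, went from 9.45 and 9.58 to 10.17 and 10.50 (0.83, SE 0.17). These 3 genes did not overlap between the groups, and their rapamycin differences without PD-0325901 were 0.02, 0.02 and 0.17. The receptor kinase Erbb2, which partners Erbb3 in Schwann cells, was 8.21 and 8.38 with PD-0325901 and 8.80 and 8.76 in the combination (0.48, SE 0.10). The 4 arrays without PD-0325901 measured Erbb2 at 8.82 to 8.93, so both PD-0325901 arrays were the lowest of the 8. Lats2, a kinase of the Hippo pathway, differed by 0.62 (SE 0.14). Olfml2b, an extracellular matrix protein, was higher by 0.90 (SE 0.20). The others by the same rule were Lrrc61 (0.60), Zbtb26 (0.65), Zfp281 (0.61), Letm2 (0.49), Rc3h2 (0.54) and Marchf7 (0.39).

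By the same rule, the lower gene with the smallest p was Psmd13, a lid subunit of the proteasome. It was 9.86 and 9.76 with PD-0325901 and 9.31 and 9.21 in the combination (-0.55, SE 0.10). Ccl8, a monocyte-attracting chemokine, was 11.50 and 11.15 with PD-0325901 and 9.92 and 8.90 in the combination (-1.91, SE 0.41). Vehicle and rapamycin arrays measured Ccl8 at 8.05 to 9.08, so it was above all of them on both PD-0325901 arrays, while combination array 2 lay within that range. Il4ra, the shared receptor chain of interleukins 4 and 13, measured 11.12 and 11.08 against 10.59 and 10.33 (-0.64, SE 0.14). Cd22, a B cell lectin, had values of 8.93 and 8.98 against 8.09 and 8.37 (-0.73, SE 0.16). Combination minus vehicle was -0.16 for Il4ra and 0.11 for Cd22. Secretory and translation genes were among the rest, and this grouping by function was not tested. Whether genes named in this comparison, higher or lower, lie together on a chromosome was not tested. DNA copy number in the tumours was not examined either. Spcs2, a subunit of the signal peptidase, differed by -0.49 (SE 0.10). Nomo1, a protein of the endoplasmic reticulum membrane, differed by -0.60 (SE 0.14). Eif3i, a subunit of initiation factor eIF3, was 10.82 and 10.74 with PD-0325901 and 10.36 and 10.12 in the combination (-0.54, SE 0.12), and its rapamycin difference without PD-0325901 was -0.50. The acidic ribosomal protein gene Rplp2 differed by -0.41 (SE 0.09), and Tomm40, the channel of mitochondrial protein import, by -0.58 (SE 0.14). Haus6 (-0.58), Gde1 (-0.74) and Cttn (-0.47) completed the 12.

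The largest differences, taken at any level among named genes with p under 0.05 and arrays that did not overlap, mostly came with larger errors. Edil3, a matrix protein that binds integrins, was 7.89 and 10.04 with PD-0325901 and 10.64 and 11.41 in the combination (2.06, SE 0.84). The other 4 arrays measured Edil3 at 10.24 to 11.78, so both PD-0325901 arrays were the lowest of the 8. Eya1, a transcriptional coactivator, differed by 1.87 (SE 0.72), Cadps, a factor of vesicle release, by 1.53 (SE 0.37), and Synpo2, an actin-binding protein, by 1.48 (SE 0.45). For these 3 genes the combination minus vehicle was 0.29, 2.42 and 1.675. Kcnma1 (1.34), Irs1 (1.30) and Cfap69 (1.27) followed, as did Hoxa2 (1.92). On the lower side Angptl7, a secreted angiopoietin-like protein, was 12.11 and 11.91 with PD-0325901 and 8.15 and 9.18 in the combination (-3.34, SE 1.34). Its vehicle arrays measured 7.23 and 11.30, a wider gap than that between the combination and PD-0325901 means. Epha3, an ephrin receptor, was 10.16 and 9.10 against 7.62 and 7.93 (-1.86, SE 0.46), with 7.31 to 8.71 on the other 4 arrays. Bcat1, which breaks down branched-chain amino acids, differed by -1.64 (SE 0.64). Art3 (-1.58), Clec4n (-1.31), Sprr1a (-1.25) and Ank2 (-1.22) made up the 8. Cadps and Cfap69 also had large differences between rapamycin and vehicle, 1.69 and 1.33.

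Glucose uptake and glycolysis genes were lower in the combination in 19 of the 20 measured members, with a median of -0.34 and differences from -0.70 to 0.09. The arrays did not overlap for 12 members, all lower, against 18.2% of all genes, and 3 members were lower at an unadjusted p under 0.05 (1.27% of all genes). The other 3 genes of the list, Gapdh, Eno1 and Gpi1, were not analysed here. Ldha, the subunit of lactate dehydrogenase that predominates in glycolytic tumours, was 12.32 and 12.37 with PD-0325901 and 11.66 and 11.72 in the combination (-0.66, SE 0.15). It measured 11.98 to 12.47 on the 4 arrays without PD-0325901, so the combination arrays were the lowest of the 8. Slc16a3, the lactate exporter MCT4, was 9.71 and 10.00 with PD-0325901 and 9.35 and 9.08 in the combination (-0.64, SE 0.21). Pgam1, a phosphoglycerate mutase, was 12.18 and 12.25 against 11.79 and 11.60 (-0.52, SE 0.18). Slc2a1, the glucose transporter GLUT1, was 11.47 and 11.84 against 10.94 and 11.09 (-0.64, SE 0.26), also below the 4 arrays without PD-0325901 (11.47 to 12.49). Hk2, the inducible hexokinase, did not follow them, with 8.79 and 9.16 against 9.16 and 8.79 (-0.01, SE 0.32).

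The score of the glycolysis list was -0.26 and -0.29 on the combination arrays, and lay between -0.05 and 0.37 on the other 6. The median of rapamycin minus vehicle, which shares no array with the comparison, was -0.19, with 16 of 20 members lower. That difference rested on vehicle array 1. The vehicle scores were 0.37 and 0.02 and the rapamycin scores -0.05 and 0.07, and without vehicle array 1 the median was -0.02, with 11 of 20 lower. The list median of the combination minus PD-0325901 stayed between -0.41 and -0.27 when single arrays were left out.

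**Figure D2:**
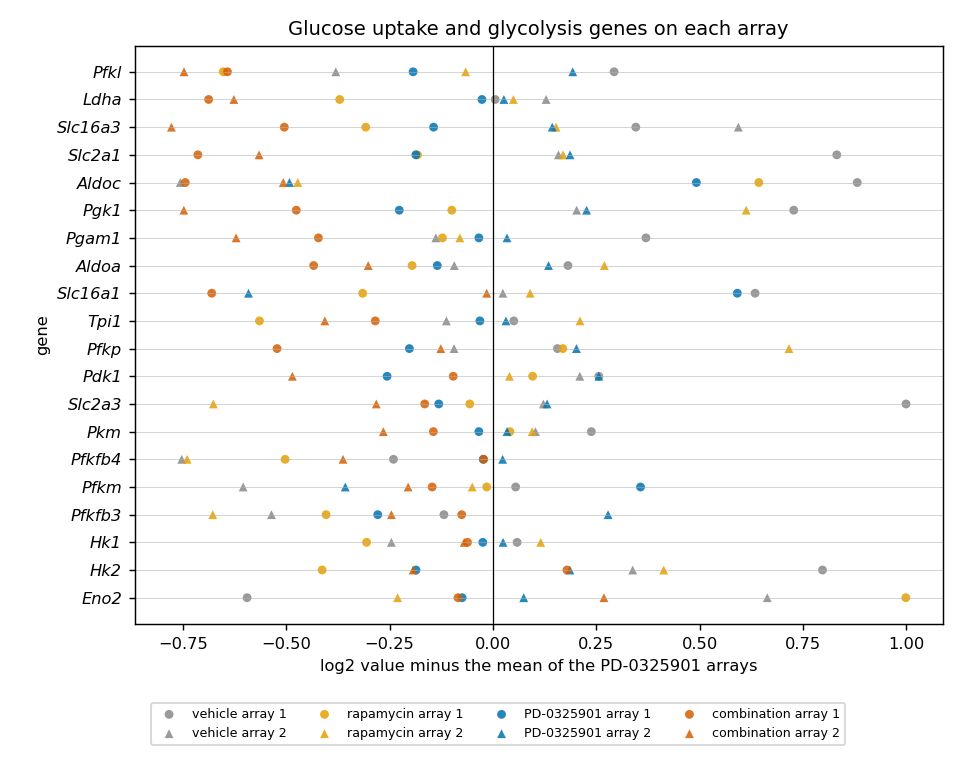
Each row is a glycolysis gene and each point an array, plotted as log2 value minus the mean of the 2 PD-0325901 arrays (circles, array 1; triangles, array 2). Combination arrays lie left of 0 for most genes, and for 12 of the 20 both lie left of both PD-0325901 arrays.

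The promoters of the 3 glycolysis genes with p under 0.05 are shown because many genes of the pathway are textbook targets of MYC, which binds CACGTG, and of HIF-1, which binds ACGTG or GCGTG. The sequences are the 250 bases before the RefSeq start in GRCm38.p6, written 5′ to 3′ on the gene's strand, and capitals mark ACGTG or GCGTG on either strand.
Ldha, chr7:46845554-46845803, plus strand: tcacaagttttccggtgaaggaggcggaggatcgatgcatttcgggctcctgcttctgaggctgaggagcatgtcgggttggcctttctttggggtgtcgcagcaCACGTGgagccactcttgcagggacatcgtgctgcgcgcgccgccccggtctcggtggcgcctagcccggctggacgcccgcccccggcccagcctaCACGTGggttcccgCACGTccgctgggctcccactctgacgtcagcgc
Slc16a3, chr11:120948817-120949066, plus strand: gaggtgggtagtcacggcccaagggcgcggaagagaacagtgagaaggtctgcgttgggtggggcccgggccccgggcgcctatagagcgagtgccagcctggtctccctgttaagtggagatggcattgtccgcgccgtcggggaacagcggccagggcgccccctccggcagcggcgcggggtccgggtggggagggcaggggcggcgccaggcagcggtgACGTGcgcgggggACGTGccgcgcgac
Pgam1, chr19:41911621-41911870, plus strand: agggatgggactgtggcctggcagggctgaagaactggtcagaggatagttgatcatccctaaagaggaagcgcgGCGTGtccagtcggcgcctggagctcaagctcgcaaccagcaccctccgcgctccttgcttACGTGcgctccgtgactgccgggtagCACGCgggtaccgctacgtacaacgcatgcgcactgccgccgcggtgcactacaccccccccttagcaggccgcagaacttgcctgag
The letters matched 5 times in this Ldha promoter, where CACGTG holds ACGTG on both strands and counts on each, 2 times in Slc16a3 and 3 times in Pgam1. Ldha has another RefSeq start, whose promoter held 1 match.

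Of 30 promoters that RefSeq lists for 19 glycolysis genes, 76.7% held ACGTG or GCGTG and 13.3% held CACGTG. Over the 32851 promoters of this length that were searched the shares were 38.6% and 6.02%. The promoters of a single chromosome were left out of the search, for the lists as well. For 33 promoters of 31 ribosome biogenesis genes, described next, they were 63.6% and 6.06%. The median G and C content was 61.0% for glycolysis, 58.4% for ribosome biogenesis and 52.4% for all promoters, and its part in the shares was not tested. The window was shortened after shares with 50 further bases past the start had been seen. With those 300 bases CACGTG was in 24.2% of ribosome biogenesis promoters against 7.15% of all, and ACGTG or GCGTG in 78.8% against 43.8%, while the glycolysis shares were 13.3% and 76.7%. These matches are letters in a window and show no binding.

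Ribosome biogenesis genes, which encode the nucleolar machinery that makes and processes ribosomal RNA, were lower in the combination in 36 of 36 measured members. The median was -0.36, with differences from -0.68 to -0.04. For 23 of them the arrays did not overlap, against 18.2% of all genes that were lower in this way, and 5 had p under 0.05, against 1.27%. Ddx21, an RNA helicase of the nucleolus, was 10.25 and 10.04 with PD-0325901 and 9.33 and 9.60 in the combination (-0.68, SE 0.26). Ltv1, a factor for assembly of the small subunit, was 8.67 and 8.68 against 7.99 and 8.16 (-0.59, SE 0.17). Ncl, which encodes nucleolin, was 11.13 and 11.10 against 10.89 and 10.70 (-0.32, SE 0.11), and Nop14 differed by -0.39 (SE 0.15). Without the MEK inhibitor rapamycin minus vehicle was also below 0 for 36 of 36, with a median of -0.45, while 32.0% of all genes were lower in both comparisons.

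The arrays within a group were not alike in these genes. The list score was 0.22 and -0.11 on the PD-0325901 arrays and -0.22 and -0.38 in the combination. It was 0.38 and 0.33 with vehicle, and -0.45 and 0.23 with rapamycin, where array 1 carried most of the difference. Without rapamycin array 1 the median of rapamycin minus vehicle was -0.11, with 27 of 36 lower. Without PD-0325901 array 1 the median of the combination minus PD-0325901 was -0.21, and without PD-0325901 array 2 it was -0.55. Groups did not overlap in both comparisons, lower with rapamycin each time, for 12 of the 36 genes and for 4.18% of all genes.

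**Figure D3:**
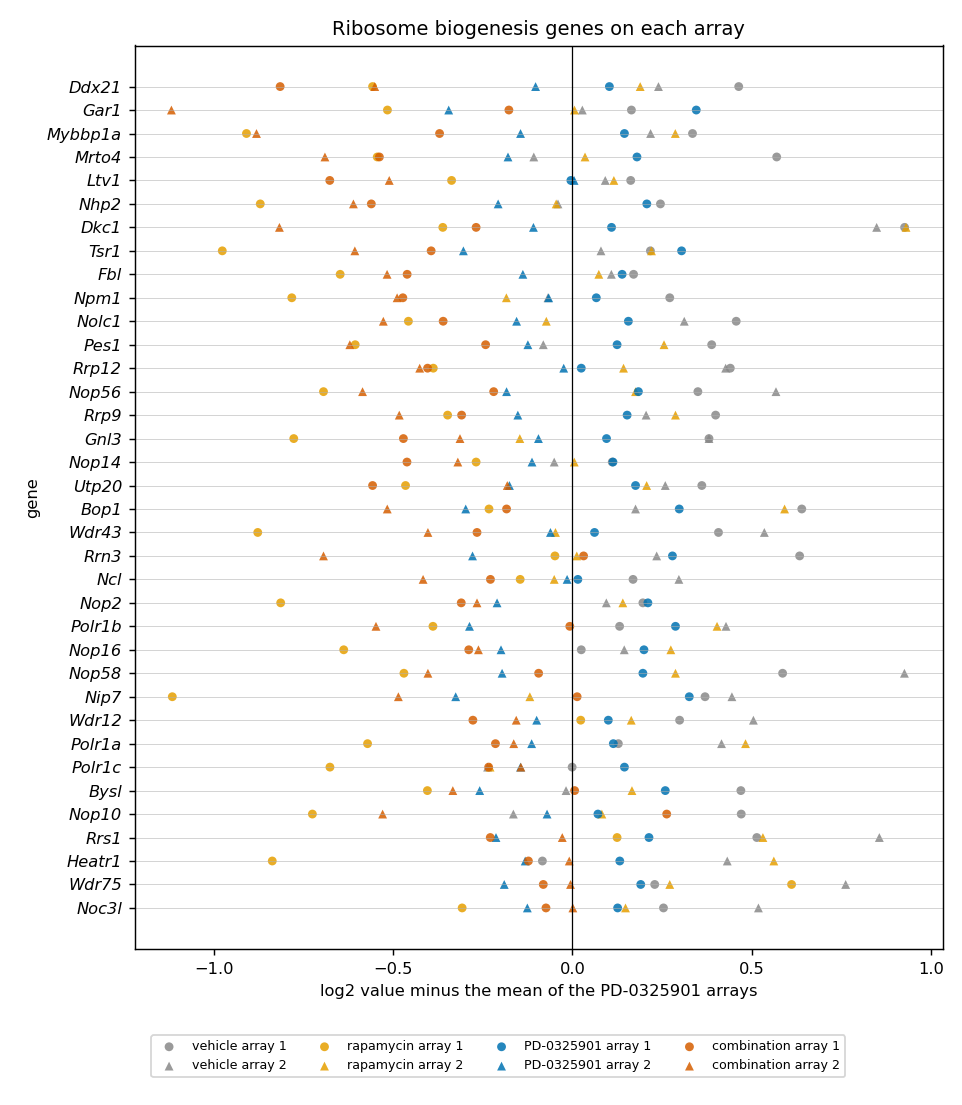
Each row is a ribosome biogenesis gene and each point an array, plotted as log2 value minus the mean of the 2 PD-0325901 arrays (circles, array 1; triangles, array 2). The combination arrays have means below 0 for 36 of 36 genes, and rapamycin array 1 lies further left than rapamycin array 2 for most of them.

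The rest of the protein synthesis machinery differed by less. Translation initiation and elongation factors were lower in 23 of 26 members (median -0.18, and -0.11 without combination array 2), led by Eif3c, another subunit of eIF3, at 11.43 and 11.40 against 10.96 and 11.09 (-0.39, SE 0.10). Eif2b5 (-0.41), Eif4g2 (-0.25) and Eif3b (-0.36) followed. Cytosolic ribosomal protein genes, whose messengers carry the terminal oligopyrimidine tract read by mTORC1, were lower in 27 of 29 with a small median of -0.09. Rps20 had the smallest p, with 12.73 and 12.85 against 12.47 and 12.54 (-0.29, SE 0.10). Control of these messengers by mTORC1 acts on translation, which arrays of total RNA do not measure. Cytosolic tRNA synthetases were lower in 15 of 18 (median -0.19, and -0.01 without PD-0325901 array 1), with Yars at -0.46 (SE 0.19).

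ATF4 targets and amino acid supply genes, a programme that mTORC1 drives through ATF4, were lower in 21 of 25 with a median of -0.20. Cth, which makes cysteine from cystathionine, was 9.25 and 8.26 with PD-0325901 and 7.56 and 7.81 in the combination (-1.07, SE 0.43). Asns, asparagine synthetase, was 11.33 and 10.82 against 9.92 and 10.76 (-0.73, SE 0.40), so the groups were apart mainly through combination array 1. The amino acid transporters Slc1a5 and Slc7a5 differed by -0.67 and -0.49, and Phgdh, the first enzyme of serine synthesis, by -0.37. The list median turned to 0.14 without combination array 1 and was -0.56 without combination array 2. ER chaperone and unfolded protein response genes had a median of -0.08, with 0.09 without combination array 2.

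Hypoxia response genes outside glycolysis were split. Fam162a, a mitochondrial protein, was lower, with 9.38 and 9.51 against 9.10 and 8.63 (-0.58, SE 0.16). Bnip3, a mitophagy receptor, was 9.69 and 10.70 against 9.38 and 9.48 (-0.77, SE 0.31). Plod2, a collagen lysyl hydroxylase, was higher, with 9.19 and 9.38 against 10.96 and 9.75 (1.07, SE 0.39). Combination minus vehicle was -1.06 for Fam162a, -1.09 for Bnip3 and 0.04 for Plod2. Vegfa, the vascular growth factor, had a difference of -0.06 (SE 0.47). The list median was -0.17, with 15 of 21 lower, and 0.02 without combination array 1. Txnip, a brake on glucose uptake, was 11.96 and 12.06 with PD-0325901 and 12.06 and 12.18 in the combination (0.11, SE 0.30), and Arrdc4, its relative, differed by -0.14.

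Oxidative phosphorylation genes were lower in 29 of 35 with a median of -0.17. The arrays did not overlap for 12 of the 35 on the lower side (18.2% of all genes) and 3 on the higher (16.3% of all genes). Of the 35 members 1 had p under 0.05, against 3.0% of all genes. This was Ndufb3, a subunit of complex I, which was higher, at 7.55 and 7.54 against 8.22 and 7.78 (0.45, SE 0.17). Uqcrc2 of complex III, Sdhb of complex II and Atp5b of the ATP synthase differed by -0.34, -0.34 and -0.27. Without combination array 2 the list median was -0.02, and without combination array 1 it was -0.36. Lysosome and autophagy genes, many of them under TFEB, which mTORC1 holds in the cytoplasm, had 15 higher and 14 lower members and a median of 0.01, which turned to -0.11 without combination array 1. Gaa, the lysosomal glucosidase, was 11.36 and 11.06 with PD-0325901 and 11.79 and 11.88 in the combination (0.63, SE 0.16). Wipi1, an autophagosome protein, differed by 0.47 (SE 0.21), Ctsd, a lysosomal protease, by -0.21 (SE 0.09), and Sqstm1, an autophagy cargo receptor, by -0.13 (SE 0.21).

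Receptors and insulin signalling genes are of interest because of the feedback that mTORC1 exerts on them. The list had 12 higher and 7 lower members of 19, with a median of 0.09, which ran from 0.01 (PD-0325901 array 1 left out) to 0.20 (combination array 2 left out). The 2 members Erbb2 and Irs1 were higher with p under 0.05, against 1.74% of all genes. Irs1, the adaptor that mTORC1 signalling turns down, was 9.75 and 8.88 with PD-0325901 and 11.16 and 10.08 in the combination (1.30, SE 0.44). It was also higher with rapamycin alone, at 10.91 and 10.54 against 10.05 and 9.64 with vehicle (0.88). Irs2, its close relative, was 9.36 and 9.44 against 10.02 and 9.54 (0.38, SE 0.19) and went the other way with rapamycin alone (-0.54). The insulin receptor gene Insr differed by 0.26 (SE 0.12) and Pdgfrb by 0.49 (SE 0.23). Pdgfra was 12.03 and 12.55 against 11.15 and 12.69, and spread over 9.23 to 12.84 on the other arrays.

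FOXO targets, which insulin signalling through AKT represses, were higher in 11 of 15 (median 0.18, and 0.04 without PD-0325901 array 1). Cdkn1b, the cell cycle inhibitor p27, was 10.08 and 10.12 with PD-0325901 and 10.41 and 10.69 in the combination (0.46, SE 0.18). Ccng2 and Klhl24 differed by 0.38 and 0.43, and by 0.71 and 0.82 between rapamycin and vehicle. Genes of the mTOR complexes and their regulators had a median of -0.01, which turned to 0.12 without combination array 1. Mapkap1, the mTORC2 subunit SIN1, was 10.15 and 10.13 against 10.68 and 10.48 (0.43, SE 0.11). Tsc1, part of the brake on mTORC1, was 9.37 and 9.50 against 9.77 and 10.10 (0.49, SE 0.15). Mtor itself differed by 0.03 (SE 0.15), and the stress-induced mTORC1 inhibitors Ddit4 and Sesn2 by -0.23 (SE 0.42) and -0.02 (SE 0.28).

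ERK output genes, which MEK inhibition targets, showed no common direction when rapamycin was added, with 16 higher, 12 lower and a median of 0.07 (-0.13 without combination array 1). Dusp6, the phosphatase that ERK induces against itself, was 10.71 and 9.76 with PD-0325901 and 10.43 and 10.15 in the combination (0.06, SE 0.41). Spred1, a Ras inhibitor that binds neurofibromin, was 9.96 and 9.97 against 10.15 and 10.14 (0.18, SE 0.09), all 4 below the 10.54 to 10.69 of the arrays without PD-0325901. Spry4 differed by 0.10 (SE 0.22), Hbegf by -0.23 (SE 0.30) and Myc by -0.24 (SE 0.27). Against vehicle, the ERK list had a median of -0.37 with PD-0325901 and -0.42 in the combination, 2 comparisons that share the vehicle arrays. Immediate early genes had a median of 0.01 (-0.06 without PD-0325901 array 2 and 0.06 without PD-0325901 array 1), and Egr1 was 9.43 and 8.53 against 9.70 and 9.62 (0.68, SE 0.47). The Ras and ERK cascade genes themselves had a median of 0.05, which was -0.07 without combination array 1 and -0.02 without PD-0325901 array 1.

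G1/S and DNA replication genes were lower in 27 of 31 (median -0.16), against a median of -0.43 for rapamycin minus vehicle. The latter rested on rapamycin array 1, since the scores were 0.35 and 0.34 with vehicle and -0.50 and 0.35 with rapamycin, and the median without that array was 0.006. Ccne1, which encodes the cyclin that starts replication, was 9.19 and 8.90 with PD-0325901 and 8.49 and 8.27 in the combination (-0.67, SE 0.22). Its relative Ccne2 differed by -0.75 (SE 0.39) and Rrm1, a subunit of ribonucleotide reductase, by -0.65 (SE 0.32). Without PD-0325901 array 1 the list median was -0.005, and without PD-0325901 array 2 it was -0.39. Mitosis genes were evenly split, 13 higher and 13 lower, with a median of 0.02 (-0.14 without PD-0325901 array 2). D cyclins, their kinases and CDK inhibitors were higher in 9 of 12 (median 0.15, or 0.09 when PD-0325901 array 1 and 0.23 when combination array 2 was left out), with Cdkn2b, the inhibitor p15, at 10.04 and 9.96 against 10.84 and 10.65 (0.75, SE 0.36) and Ccnd1, cyclin D1, at -0.24 (SE 0.31). BH3-only and Bcl2 family genes had 5 higher and 9 lower members of 14, with a median of -0.02 (0.03 without combination array 2). Among the higher ones, the survival gene Bcl2 was 8.63 and 9.21 against 9.23 and 9.85 (0.62, SE 0.27). Bcl2l11, the death gene Bim, differed by 0.25 (SE 0.25). The p53 target list had a median of -0.06, in tumours of mice with a mutant Trp53 allele.

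Lipid synthesis gave no uniform picture. Sterol synthesis and uptake genes were higher in 15 of 19 (median 0.17), among them Hmgcs1, an early enzyme of the pathway, at 8.96 and 8.81 against 9.39 and 9.09 (0.35, SE 0.16). Srebf2, their transcription factor, was 10.53 and 9.62 against 10.68 and 10.55 (0.54, SE 0.35), Dhcr7 differed by -0.44 (SE 0.20) and Insig1 by 0.04. The median was -0.05 without PD-0325901 array 2 and 0.43 without PD-0325901 array 1. Fatty acid synthesis genes had a median of -0.08 (-0.12 without combination array 1 and -0.03 without PD-0325901 array 1), with Elovl6, an elongase, at -0.69 (SE 0.35) and Fasn, fatty acid synthase, at -0.26 (SE 0.33).

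**Figure D4:**
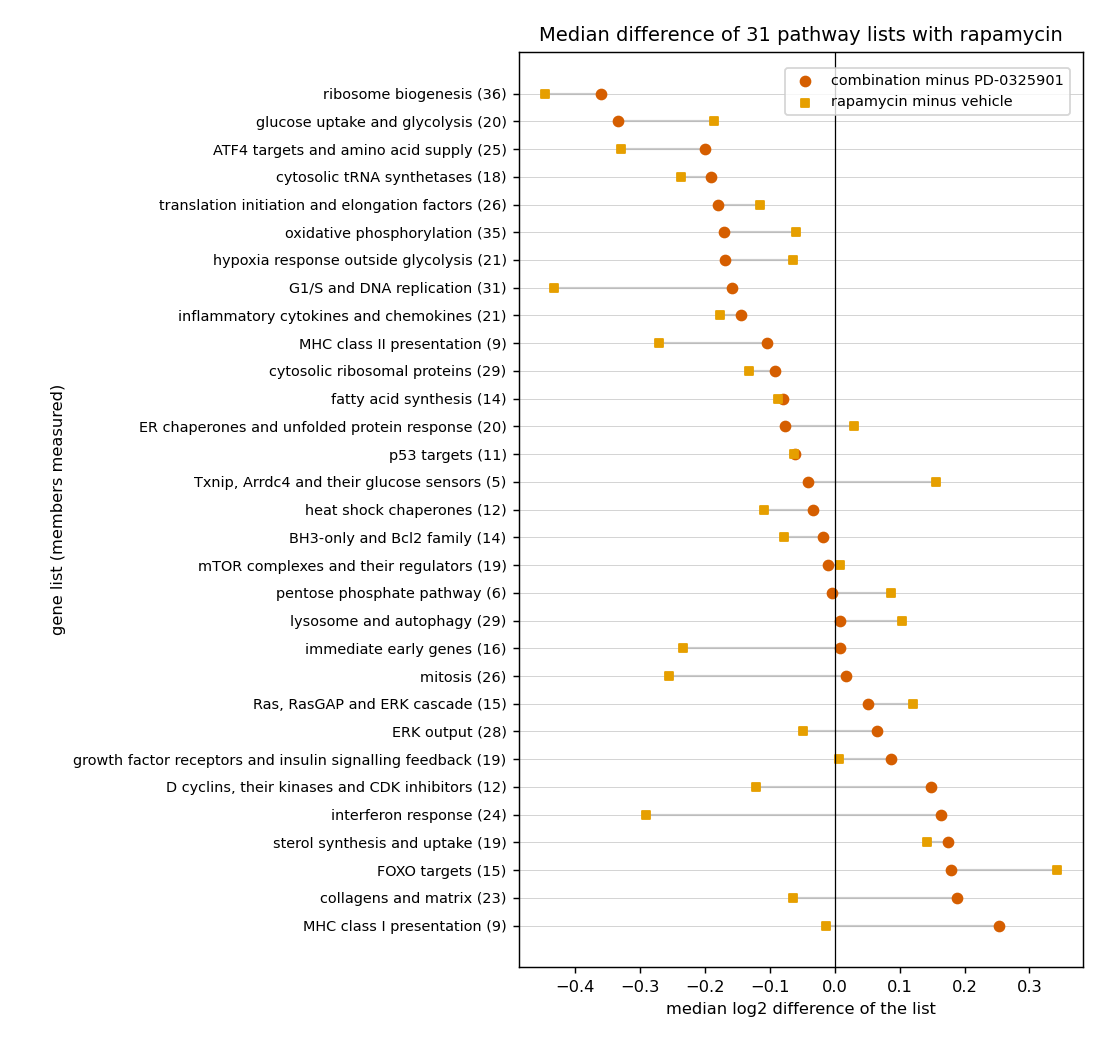
Median log2 difference of 31 pathway lists for the combination minus PD-0325901 (circles) and for rapamycin minus vehicle (squares), with the number of genes measured in parentheses. Ribosome biogenesis lies lowest in both, at -0.36 and -0.45.

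Immune genes differed by group. Among inflammatory cytokines and chemokines 17 of 21 were lower, with a median of -0.14, which was -0.27 without combination array 2 and -0.07 without PD-0325901 array 2. The 2 members Ccl8 and Il1b were lower with p under 0.05, against 1.27% of all genes. Il1b, interleukin 1 beta, was 7.91 and 7.87 with PD-0325901 and 7.16 and 7.53 in the combination (-0.55, SE 0.20), and rapamycin alone gave 8.29 and 8.27 against 9.95 and 9.44 with vehicle (-1.41). Ccl2, a monocyte chemokine, was 11.90 and 11.34 against 10.29 and 11.18 (-0.89, SE 0.38). Macrophage markers were lower in 13 of 15 (median -0.21), with Trem2, a lipid receptor, at 11.29 and 11.09 against 10.91 and 10.79 (-0.34, SE 0.14) and Fcgr1, an IgG receptor, at -0.40 (SE 0.17). Their scores were 0.26 and 0.37 with PD-0325901 and 0.31 and -0.19 in the combination, so combination array 1 was not lower, and without combination array 2 the median was 0.03.

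Genes of MHC class II presentation were lower in 7 of 9 (median -0.10). H2-Aa, a class II chain, was 12.38 and 12.45 with PD-0325901 and 12.19 and 11.91 in the combination (-0.36, SE 0.12), against 11.03 to 11.68 on the arrays without PD-0325901. H2-Eb1, H2-Ab1 and Cd74, the invariant chain, differed by -0.28, -0.35 and -0.31, and Ciita, their transcriptional regulator, by -0.09 (SE 0.17). Without combination array 1 the median was -0.43. Class I presentation genes were higher in 8 of 9 (median 0.25), with Tap1, the peptide transporter, at 9.57 and 10.20 against 9.97 and 10.52, and the median was 0.05 without PD-0325901 array 1. Interferon response genes were higher in 20 of 24 (median 0.16), which rested on combination array 2, since the median was -0.26 without it and 0.60 without combination array 1. T and NK cell markers had the same dependence, with a median of 0.22, -0.15 without combination array 2 and 0.61 without combination array 1. Gzmb, a cytotoxic granule protease, was 6.90 and 7.53 against 7.50 and 8.56 (0.82, SE 0.38).

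Of the 16 cell type marker lists, 12 had a median below 0. Tubb3, a neuronal tubulin, was 8.51 and 7.90 with PD-0325901 and 7.34 and 7.29 in the combination (-0.89, SE 0.20), and Nefl, a neurofilament, 8.88 and 8.24 against 6.93 and 7.79 (-1.20, SE 0.44). Neuron markers as a list had 9 of 10 lower and a median of -0.17, and -0.30 without PD-0325901 array 2. Mast cell markers were lower in 9 of 9 (median -0.42, and -0.16 without PD-0325901 array 2). Endothelial markers were lower in 10 of 12 (median -0.26), but the median was 0.03 without PD-0325901 array 2. Neutrophil markers (median -0.43, and -0.001 without PD-0325901 array 2) and the 4 measured erythroid markers (-0.82, and -0.13 without it) depended on the same array. Dendritic cell markers were lower in 9 of 12 (median -0.12, and 0.12 without PD-0325901 array 2). Siglech, a plasmacytoid marker, was higher by 0.35 (SE 0.11) and Cd209a, a lectin of monocyte-derived cells, lower by 0.62 (SE 0.23).

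Collagens and matrix genes were higher in the combination in 16 of 23 (median 0.19), with non-overlapping arrays for 9 members on the higher side (16.3% of all genes) and 3 on the lower (18.2% of all genes). Mmp14, a membrane metalloproteinase that cleaves collagen, was 11.62 and 11.35 with PD-0325901 and 11.95 and 12.13 in the combination (0.55, SE 0.15). Col5a1, which encodes a fibril collagen, was 9.80 on both PD-0325901 arrays and 10.57 and 10.21 in the combination (0.59, SE 0.16). Col12a1, a fibril-associated collagen, was 10.22 and 9.11 against 10.81 and 11.03 (1.25, SE 0.39), and Col1a2 differed by 0.34 (SE 0.14). The fibroblast marker score did not move with them, at 0.29 and 0.28 with PD-0325901 and -0.27 and 0.38 in the combination. The list median was 0.02 without combination array 1 and 0.35 without combination array 2.

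The interaction term tested whether rapamycin's difference with PD-0325901 departs from its difference without it. No gene passed an adjusted p of 0.05 in limma (percent called 0.00, smallest adjusted p 0.9999), and 434 genes (2.18%) had an unadjusted p under 0.05. For rapamycin minus vehicle the counts were 0 and 982 (4.93%). Across genes the differences with and without PD-0325901 had a Pearson r of 0.18 and a Spearman rho of 0.21, and 57.7% of genes had the same sign. These are descriptions over 19938 genes, which are not independent replicates.

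Genes were ranked by interaction p only among named genes above the median level whose combination and PD-0325901 arrays did not overlap. This filter favours genes that differ between those 2 groups, so the ranking is not over all genes. By this rule Palld, an actin-bundling protein, was lower with rapamycin alone (9.69 and 9.96 against 10.59 and 10.88 with vehicle). It was higher in the combination (11.13 and 10.78 against 10.53 and 10.17 with PD-0325901), an interaction of 1.52 (SE 0.29). Fhod1, a formin, gave 0.99 (SE 0.18) and Stxbp4, a syntaxin-binding protein, 1.003 (SE 0.21). In the matrix list, without this filter, 5 of 23 members had an interaction p under 0.05, against 2.18% of all genes. Each of the 5 was above 0, with Mmp14 at 0.95. Below 0 were Rbmx, a splicing factor, at -1.16 (SE 0.21), which was 10.04 on both rapamycin arrays against 9.06 and 9.21 with vehicle, and Smim14 at -0.90 (SE 0.19). Hexim1, an inhibitor of the elongation kinase P-TEFb, gave -0.60 (SE 0.13), and Cttn, an actin regulator, -0.67 (SE 0.15). Ube2e2, a ubiquitin-conjugating enzyme, had an interaction of 0.85 (SE 0.18). Ribosome biogenesis had 0 of 36 members and glycolysis 0 of 20 with an interaction p under 0.05, against 2.18% of all genes. At that share, 0 in lists of this size is no result about them. It does not show that the 2 rapamycin differences are equal.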

How the data were processed

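RNA taken up in Trizol and cleaned on RNeasy columns was amplified with the NuGEN Applause kit and labelled with biotin, per the labels' protocols. The deposited table gives log2 values of probe sets by array. That scale was inferred from their range, and which software and normalization the authors used is not given in these sources. Of 35512 probe sets, 21789 carry a single gene symbol. Where several probe sets measure a gene, the one with the highest mean stands for it, leaving 19938 genes, with no filter on low values. Array medians lay between 7.79 and 7.90. Correlations between arrays were 0.961 to 0.986 within groups and 0.963 to 0.985 between them.

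Groups came from the sample titles. Means of 4 groups on all 8 arrays entered a linear model in limma 3.58.1 (functions lmFit and eBayes, two-sided tests, R 4.3.3, 4 residual and 1.98 prior degrees of freedom), with Benjamini-Hochberg adjustment over all genes. The fit was tested on simulated data. An exact permutation test of 2 arrays against 2 cannot go below p = 0.333.

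The members and the 47 gene lists (830 genes, 762 measured) were chosen with earlier results of these data known. Lists are described by counts and medians, without a test. Genes were named by rule: per direction the 12 smallest p among well-expressed genes with non-overlapping arrays, the 8 largest differences among genes with p under 0.05 and non-overlapping arrays (both without clone, predicted or olfactory and vomeronasal receptor gene names), up to 4 per list by smallest p, 4 per direction for the interaction, and a set of pathway genes always given. The interaction genes were taken by smallest interaction p under the filter used for the 12.

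Promoter sequences are from RefSeq (GRCm38.p6), matched by symbol. Alternatives were another normalization or centring, a level filter, a variance trend, the mean of all probe sets, the array number as a block, only the groups compared, a threshold of 0.1, and each array left out in turn.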

Additional observations from a re-analysis of the deposited data

How the results depend on the processing

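The count of genes past the adjusted p for the combination minus PD-0325901 was 0 under all 16 alternatives, with unadjusted counts from 250 (level filter) to 1166 (only the 2 groups compared). With the array number as a replicate block it was 0 genes, 582 at an unadjusted p under 0.05, and for the interaction 0 and 385. Deviations of same-numbered arrays correlated at -0.28 to 0.18 between groups, so the number is not treated as a pairing. The interaction count was 0 in every alternative but one. Without vehicle array 2 it was 2, the olfactory receptor genes Olfr846 and Olfr847 (adjusted p 0.009772 for both in limma, 0.9999 with all arrays). Across the leave-one-out fits it ran from 0 to 2, the group left with 1 array being assumed to vary like the others.

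Of 47 list medians, 20 kept their sign throughout, and 31 of 705 values moved by more than the replicate spread. The 705 include settings that cannot move a list median, so this share does not measure stability. Those are leaving out a vehicle or rapamycin array, the variance trend, the array number as a block, and fitting only the 2 groups compared. Leaving out single arrays gave medians of -0.053 to 0.43 for sterol synthesis and uptake, -0.56 to 0.14 for ATF4 targets and amino acid supply, -0.29 to -0.007 for cytosolic tRNA synthetases, 0.040 to 0.29 for FOXO targets, -0.011 to 0.12 for mTOR complexes and their regulators, -0.065 to 0.18 for Ras, RasGAP and ERK cascade, -0.13 to 0.15 for ERK output, -0.26 to 0.089 for ER chaperones and unfolded protein response and -0.085 to 0.094 for p53 targets. It gave -0.43 to -0.067 for MHC class II presentation, 0.048 to 0.38 for MHC class I presentation, -0.41 to 0.025 for macrophage markers, -0.60 to -0.001 for neutrophil markers, -0.15 to 0.61 for T and NK cell markers, -0.38 to 0.028 for endothelial markers, -0.049 to 0.14 for epidermis markers, -0.30 to -0.17 for neuron markers and -1.56 to -0.13 for erythroid markers. With only genes above the median level, medians were -0.015 (p53 targets), -0.28 (MHC class II), 0.047 (Schwann cells), -0.54 (B and plasma cells) and -0.20 (epidermis). The filter leaves fewer members. The cause of the other shifts was not tested.

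All 24 genes named for small p and all 16 named for size kept their sign. Their arrays were chosen not to overlap, so leaving out 1 array could not change it. Of 145 genes named, 129 kept their sign. The rest changed sign when 1 array was left out: -0.48 to 0.009 for Ccnd1, -0.32 to 0.14 for Ciita, -0.80 to 0.34 for Ddit4, -0.42 to 0.53 for Dusp6, -0.53 to 0.070 for Hbegf, -0.19 to 0.18 for Hk2, -0.13 to 0.13 for Hoxa11, -0.069 to 0.22 for Hoxa13, -0.088 to 0.17 for Insig1, -0.12 to 0.19 for Mtor, -0.54 to 0.055 for Myc, -1.14 to 0.40 for Pdgfra, -0.41 to 0.36 for Sesn2, -0.18 to 0.038 for Sox10, -0.19 to 0.38 for Spry4 and -0.25 to 0.14 for Vegfa. With quantile normalization Hoxa11 was 0.017. The shares of ribosome biogenesis promoters with CACGTG and with ACGTG or GCGTG were 24.2% and 78.8% in the 300-base window, an alternative chosen after seeing the data. With 2 arrays a group, only differences far above the spread could pass.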

Other observations

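The Hoxa cluster was examined after its values had been seen, so no test of it is given. The 11 measured Hoxa genes counted here include the antisense gene Hoxaas2. Of the 11, 10 were higher in the combination, with a median of 1.02 (0.22 without combination array 1 and 1.61 without combination array 2). For 9 of the 11 the arrays did not overlap (16.3% of all genes were higher in this way). The protein-coding Hoxa genes encode homeodomain factors that set position along the body axis. Hoxa2 was 6.49 and 6.66 with PD-0325901 and 8.78 and 8.21 in the combination, Hoxa3 6.48 and 6.50 against 7.88 and 7.07, and the antisense gene Hoxaas2 6.80 and 6.95 against 8.07 and 7.72. The transcript 5730596B20Rik, which lies between Hoxa2 and Hoxa4 in GRCm38.p6, had the smallest p of all genes. It was 6.60 and 6.42 with PD-0325901 and 7.92 and 8.16 in the combination, a difference of 1.53 (SE 0.16, adjusted p 0.8677 in limma). These PD-0325901 values, like those of Hoxa2, Hoxa3 and Hoxaas2, lie below the medians of the 2 arrays, 7.84 and 7.88. Without detection calls they do not show whether the genes were expressed there. Whether the probe sets tell the overlapping and antisense transcripts of this locus apart was not tested. The 4 arrays without PD-0325901 measured 5730596B20Rik at 7.22 to 7.52, so the PD-0325901 arrays were the lowest and the combination arrays the highest of the 8.

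Hoxa5 to Hoxa10 behaved differently. Hoxa5 was 10.20 on combination array 1 but 6.93 on combination array 2, against 6.72 and 6.64 with PD-0325901. Hoxa6 (9.94 and 7.70), Hoxa7 (9.79 and 7.85), Hoxa9 (9.39 and 7.14) and Hoxa10 (8.64 and 7.06) were also higher on combination array 1 than on combination array 2. The arrays without PD-0325901 reached values near those of combination array 1 for some of them, with Hoxa6 at 9.75 and 9.03 with rapamycin and Hoxa10 at 8.33 and 8.62. Hoxa4 differed by 0.34, Hoxa11 by -0.002 and Hoxa13 by 0.08. The medians of the Hoxb, Hoxc and Hoxd genes were -0.005, -0.20 and 0.17. The first 2 turned to 0.43 and 0.11 without combination array 1, and the last to -0.14 without combination array 2.

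Genes named Zfp, most of them zinc finger transcription factors, were higher in the combination in 229 of 347, and for 132 of them (38.0%) the arrays did not overlap on the higher side, against 16.3% of all genes, with 38 (11.0%) on the lower side, against 18.2%, also counted after values were seen. Mitochondrial ribosomal protein genes (Mrpl and Mrps) were lower in 56 of 77 with a median of -0.09 (0.008 without PD-0325901 array 1), and RNA polymerase subunit genes (Polr) in 22 of 27 with a median of -0.18 (-0.04 without PD-0325901 array 1). Tnfsf18, a ligand of the TNF family, had the smallest p among lower genes, but its mean level lies below that of the median gene, so the naming rule does not take it. It was 7.32 and 7.37 with PD-0325901, 6.37 and 6.13 in the combination and 6.05 to 6.24 on the arrays without PD-0325901 (-1.10, SE 0.12, adjusted p 0.8677 in limma).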
